A study of Homo sapiens with 8 samples.

Results

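The genes described here carry the signal of G protein-coupled receptors inside the cell, through G protein subunits, cyclic AMP (cAMP) and phospholipase C. They were listed as the signalling members of the serotonergic synapse pathway, which the study names among its pathways, and were kept where the deposited expression table holds a row. Of 39 listed genes, 37 have a row, out of 14526 genes in the table. GNG10, a G protein gamma subunit, and MAOB, a monoamine oxidase, have no row in the table and were not analysed. The 37 genes comprise 7 G protein alpha, 4 beta and 6 gamma subunits, 6 adenylyl cyclases, 2 catalytic and 4 regulatory subunits of protein kinase A (PKA), 3 beta-type phospholipases C (PLC), 3 receptors for inositol trisphosphate (IP3), the kinase PRKCA and the enzyme MAOA.

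The samples are cultures labelled HepG2, a line from a human liver carcinoma, from a study of sodium benzoate (SB) and the benzoylation of histone lysines. The control group is 4 cultures without SB, and the SB-treated group is 4 cultures kept with 10 mM SB for 24 h, all in DMEM with fetal bovine serum and with no genetic change named for either group. The study describes the 4 replicates of each group as biological replicates, all from a single line at a single dose and time, and the labels name no other salt given to the controls. The comparison asks which transcripts differ in level after SB. Total RNA was sequenced from stranded libraries in single reads of 50 bases. The values are RPKM, read counts divided by the counted gene length in kilobases and by a scaled library size, and whole read counts were recovered from them. Recovered reads per library ranged from 36990075 to 44492795 in the controls, with a median of 41433808, and from 37161781 to 44878414 in the SB-treated cultures, with a median of 39459044. These totals hold up to a common factor that the table does not fix exactly.

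A receptor that binds its ligand makes a G protein alpha subunit exchange GDP for GTP and part from its beta-gamma pair. Stimulatory alpha subunits switch on adenylyl cyclases, whose product cAMP frees the catalytic subunits of PKA from the regulatory ones, inhibitory alpha subunits restrain the cyclases, and alpha subunits of the Gq class switch on beta-type PLC, whose products IP3 and diacylglycerol release stored calcium and activate protein kinase C. In liver cells, glucagon and adrenaline use these arms to control glycogen breakdown and glucose output.

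The labelled cell line was checked against 22 genes that mark hepatocytes. Only 4 of them have a row, among them TF, FOXA1 and FOXA3, and 18 have none, namely ALB, AFP, APOA1, APOA2, APOB, APOC3, APOH, TTR, SERPINA1, FGA, FGB, FGG, HP, AHSG, AMBP, RBP4, HNF4A and FOXA2. The most abundant, FOXA3, stood at a mean of 2.06 RPKM in the controls and 4.16 RPKM in the SB-treated cultures, and the plasma protein gene TF at 0.192 and 0.379 RPKM. The values go against a liver identity, so the samples are called control and SB-treated cultures from here on. The 4 hepatocyte genes together came to between 3.50 and 4.07 RPKM in the controls and between 6.32 and 6.79 RPKM in the SB-treated cultures, without overlap, and all 4 were higher in limma's test. Of 5 macrophage markers, 2 have a row and their summed levels overlapped between groups. The most abundant, CD68, stood at 1.28 RPKM in the controls and 1.69 RPKM after SB and was the 1 called, higher, while PTPRC, CD14 and CSF1R have no row. Of 6 fibroblast markers, 4 have a row, of which 1 was called higher and 1 lower, and their summed levels overlapped. The most abundant, COL1A1, stood at 4.86 RPKM in the controls and 4.10 RPKM after SB and was not called, and COL1A2 and DCN have no row. Of 4 endothelial markers, only KDR has a row, at 0.314 RPKM in the controls and 0.145 RPKM after SB, without overlap. The part of these markers in the results was not tested, and in bulk samples fewer cells of a type and less RNA per cell cannot be told apart.

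One control library stood apart from the others. Over all genes, the median absolute distance of control replicate 1 from the mean of the other controls was 0.142 on the log2(RPKM + 1) scale, against 0.0615 to 0.0627 for the other controls and 0.0311 to 0.0443 for the SB-treated replicates. Over the 37 signalling genes that distance was 0.182, against 0.0620 to 0.0761 for the other controls. Control replicate 1 was the lowest or the highest control for 32 of the 37 genes, where each other control was so for 13 to 15. The results below are given with all 8 libraries, and also without control replicate 1 where that changes them.

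**Figure D1:**
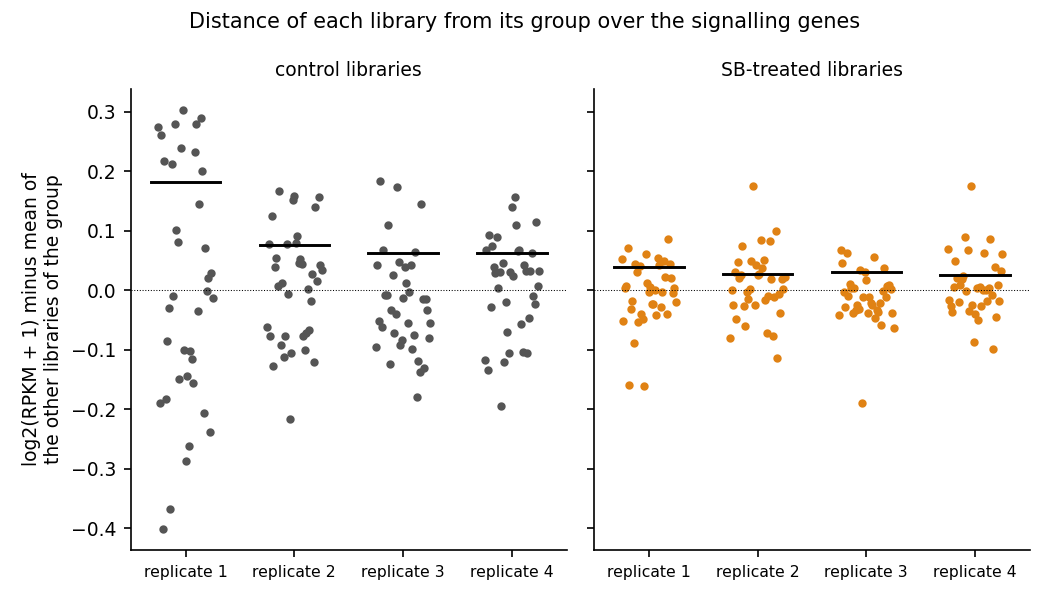
Each point is a signalling gene (37 per library), its log2(RPKM + 1) in one library minus the mean of the other libraries of the group on the y axis, with control replicates on the left and SB-treated replicates on the right. Black lines mark the median absolute distance, which is 0.182 for control replicate 1 and at most 0.0761 for any other library.

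After SB, the cultures held more transcript of each of the 6 adenylyl cyclases with a row, and of these ADCY1 and ADCY6 had the largest fold changes. The gamma subunit gene GNG2 lost the largest share of its transcript among the 37 genes. The other large families were split, and within the alpha, beta, gamma and PKA subunits some genes rose while others fell. The most abundant genes of the pathway, among them GNAS, GNB1 and GNG5, were lower after SB in the values as deposited. The size of these declines depended on how the libraries were scaled. GNB1 turned positive and GNAS lost its call at equal library totals, whereas GNG5, the cyclases and GNG2 kept both direction and call under each scaling tried.

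The test was limma on log2(RPKM + 1) over all 14526 genes, with a gene called where its Benjamini-Hochberg adjusted p was below 0.05. Adding 1 to RPKM understates the change of genes with low values. Much of the transcriptome differed between the groups, with 33.0% of all genes called higher and 32.6% called lower, 65.6% in all. Of the 37 signalling genes, 17 were called higher (45.9%) and 12 lower (32.4%), so 29 (78.4%) were called and 8 were not. The share called lower was close to that of all genes, and the share called higher was above it, a difference that was not tested. Called genes whose log2 fold change reached 0.5 in either direction made up 10.6% of all genes and 4 of the 37 (10.8%). That count moved with the setting, to 8 without TMM factors and 9 with the same total RPKM in every library, settings in which 11.2% and 13.6% of all genes were called and reached 0.5. The groups did not overlap for 61.5% of all genes, and for 27 of the 37, of which 15 were higher and 12 lower. The median log2 fold change of the 37 was 0.05, against 0.00 over all genes, and their median absolute log2 fold change was 0.26, against 0.20. Their log2 fold changes ran from -0.91 for GNG2 to 0.88 for ADCY1. Without control replicate 1, 18 were higher and 14 lower with 75.5% of all genes called, 4 were past 0.5, and the median of the 37 was 0.09. The number past 0.5 came to 3 without control replicate 3 or SB-treated replicate 3 and to 5 without control replicate 4.

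**Figure D2:**
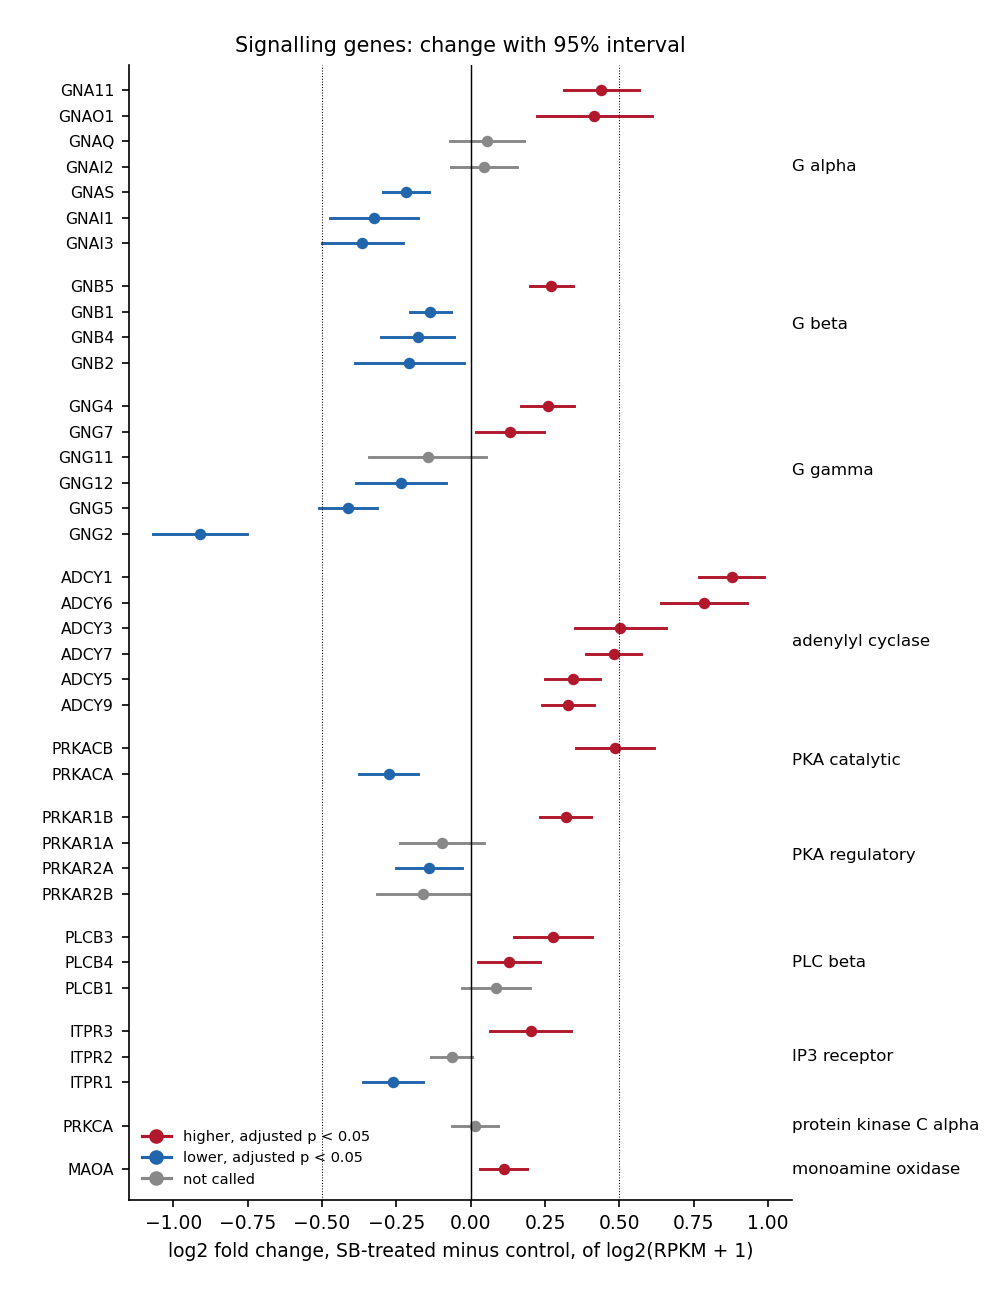
Points give the log2 fold change of each of the 37 genes (x axis, SB-treated minus control on log2(RPKM + 1)) with its 95% interval from limma, grouped by role, in red for genes called higher, blue for genes called lower and grey for the rest. All 6 adenylyl cyclases lie to the right of 0 under each scaling tried, and GNG2 lies farthest left at -0.91, while GNB1, PRKAR1A, PRKAR2A, PRKAR2B and ITPR2 turn positive when every library is given the same total RPKM.

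The scaling of the libraries mattered for the balance of directions. The deposited values rest on TMM factors, which the recovered reads put at 0.956 to 0.968 for the controls and 1.03 to 1.04 for the SB-treated libraries, and the summed RPKM of a library was 403166 to 408246 in the controls and 354642 to 356905 after SB. Of the genes called in the deposited values, 50.25% were higher. Without TMM factors that figure was 65.07%, and with the same total RPKM in every library it was 75.37%. The median log2 fold change of all genes moved from 0.00 to 0.08 and 0.14 under these scalings. Relative to that median, the median of the signalling genes was 0.05 as deposited, 0.07 without TMM factors and 0.08 with equal totals. Among the 37, the calls changed from 17 higher and 12 lower to 21 and 7 without TMM factors, and to 22 and 4 with equal totals. Of all genes, 43.0% were called higher and 23.1% lower without TMM factors, and 51.2% and 16.7% with equal totals. GNG2, GNG5, GNAI3 and ITPR1 kept a lower call under each of these scalings.

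**Figure D3:**
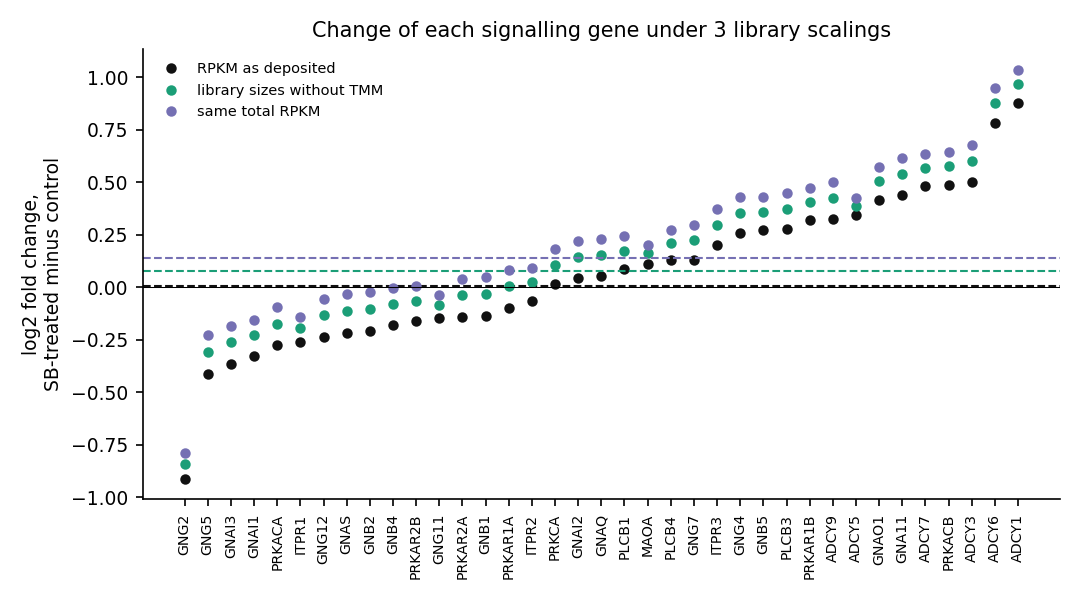
For each of the 37 genes (x axis, ordered by change), points give the log2 fold change (y axis, SB-treated minus control) under 3 library scalings, and dashed lines give the median of all genes under each. The medians are 0.00 as deposited, 0.08 without TMM factors and 0.14 with equal totals, and ADCY1 at one end and GNG2 at the other keep their sign under all 3.

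Promoter sequences are printed for a pair of cyclases, since the cyclases rose together, for GNG2, which fell, and for GNAO1, chosen because it holds a full cAMP response element. They are from RefSeq (GRCh38.p14) and read 5′ to 3′ on the strand of the gene. Each runs from 250 bases before to 50 bases after a start site of the gene. For some genes, such as GNAI1 and GNAS, that site lies well inside the span given by GENCODE release 44. Of the 37 genes, 31 matched an entry, with none for GNAQ, ADCY6, ADCY9, PLCB1, PLCB4 and ITPR2. Both strands were searched for the cAMP response element TGACGTCA, for its core site TGACG, which every full element also holds, for the GC box GGGCGG and for the TATA box TATAAA. Capitals mark core sites and full elements in ADCY1 (chr7:45573890-45574189, plus strand) and GNAO1 (chr16:56191239-56191538, plus strand), and GC boxes in ADCY3 (chr2:24920188-24920487, minus strand). GNG2 (chr14:51825924-51826223, plus strand) held none of the 4 motifs.
ADCY1: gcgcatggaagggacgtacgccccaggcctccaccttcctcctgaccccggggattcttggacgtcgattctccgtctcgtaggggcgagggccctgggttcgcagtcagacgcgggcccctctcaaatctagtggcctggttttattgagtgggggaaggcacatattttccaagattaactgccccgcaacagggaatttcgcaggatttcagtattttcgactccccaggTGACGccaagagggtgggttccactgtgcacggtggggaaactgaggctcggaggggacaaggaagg
GNAO1: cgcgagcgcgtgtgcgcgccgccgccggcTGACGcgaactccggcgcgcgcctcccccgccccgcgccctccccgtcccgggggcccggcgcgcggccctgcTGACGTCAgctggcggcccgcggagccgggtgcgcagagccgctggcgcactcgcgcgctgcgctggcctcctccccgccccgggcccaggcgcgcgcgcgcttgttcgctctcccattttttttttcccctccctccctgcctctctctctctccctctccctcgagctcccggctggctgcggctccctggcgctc
ADCY3: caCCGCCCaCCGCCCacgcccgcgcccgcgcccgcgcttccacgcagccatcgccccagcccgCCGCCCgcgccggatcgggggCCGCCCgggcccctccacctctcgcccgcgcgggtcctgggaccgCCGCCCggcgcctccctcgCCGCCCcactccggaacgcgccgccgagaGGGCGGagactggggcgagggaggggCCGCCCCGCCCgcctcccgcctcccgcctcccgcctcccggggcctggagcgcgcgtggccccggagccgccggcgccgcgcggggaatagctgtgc
GNG2: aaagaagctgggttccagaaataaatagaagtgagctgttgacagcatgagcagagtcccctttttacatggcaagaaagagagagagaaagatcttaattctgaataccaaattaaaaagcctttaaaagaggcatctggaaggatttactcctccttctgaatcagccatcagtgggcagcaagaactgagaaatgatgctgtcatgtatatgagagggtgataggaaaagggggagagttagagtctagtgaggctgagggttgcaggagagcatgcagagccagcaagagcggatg
The full element occurred in GNAO1 and GNG7, 2 of 31 genes (6.45%), in 1.85% of 35116 promoters of the same length and in 2.69% of the 15705 among these whose gene is in the table. Those 15705 promoters outnumber the 14526 genes of the table, so some genes count more than once, whereas each member counts by a single promoter. The core site occurred in 12 of the 31 (38.7%), against 24.6% of all promoters and 31.1% of those of genes in the table, and among cyclases in ADCY1 alone of the 4 with an entry. The GC box occurred in 23 of the 31 (74.2%), against 45.0% of all promoters and 65.0% of those of genes in the table, with 9 matches in ADCY3. No member promoter held TATAAA, which 11.5% of all promoters and 6.39% of those of genes in the table hold. Median GC content was 73.0% in the members, from 44.3% in GNG2 to 84.7% in ADCY3, and 58.7% in all promoters. No median was computed for promoters of genes in the table, so whether this difference is particular to the members was not tested. A match is a description of letters and not of a bound site.

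Among the alpha subunits, which choose the effector, GNA11 and GNAO1 were higher after SB under each scaling, and GNAS, GNAI1 and GNAI3 were lower, though only GNAI3 stayed called with equal library totals. GNA11, a Gq-class subunit that activates PLC, stood at 12.6, 14.3, 14.5 and 14.6 RPKM in control replicates 1 to 4 and at 17.7, 19.8, 19.97 and 19.8 RPKM in SB-treated replicates 1 to 4. Replicate 1 was the lowest in each group, and the groups did not overlap. Its log2 fold change was 0.44 (SE 0.06, limma adjusted p = 9.80e-05). GNAO1, the Go alpha subunit best known from neurons, stood at 3.70, 5.17, 5.37 and 5.08 RPKM in the controls and 6.75, 6.85, 6.71 and 6.58 RPKM after SB. All SB-treated values lay above the controls, of which replicate 1 was far the lowest. The log2 fold change of GNAO1 was 0.42 (SE 0.09, limma adjusted p = 0.00193), and it was 0.32 without control replicate 1.

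GNAS encodes the stimulatory alpha subunit and was the most abundant alpha gene. Its values were 146, 157, 152 and 156 RPKM in the controls and 129, 133, 131 and 133 RPKM after SB. Every SB-treated value was below every control. GNAS had a log2 fold change of -0.22 (SE 0.04, limma adjusted p = 4.28e-04), which shrank to -0.03 and was no longer called (limma adjusted p = 0.441) with equal library totals. The inhibitory subunits GNAI1 and GNAI3 were called lower at -0.33 and -0.36, though with equal totals GNAI1 lost its call (-0.15, limma adjusted p = 0.0617) and GNAI3 shrank to -0.18. GNAI2, also inhibitory, was not called at 0.04 and came to -0.0034 without control replicate 1. GNAQ, the closest relative of GNA11, was not called at 0.05, but was called at 0.11 without control replicate 1 (limma adjusted p = 0.0107). Over the fits that left out one library, GNAQ ran from 0.02 to 0.11. Without TMM factors, GNAI2 and GNAQ were both called higher, at 0.14 and 0.15.

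The beta subunits, which pair with gamma subunits to signal on their own, showed small differences. GNB1, the most abundant, stood at 119, 121, 121 and 123 RPKM in the controls and 109, 112, 111 and 109 RPKM after SB. The groups were tight and did not overlap. GNB1 had a log2 fold change of -0.14 (SE 0.03, limma adjusted p = 0.00308), which turned to 0.05 with equal library totals. GNB4 was called lower at -0.18 and GNB2 at -0.21, and neither kept its call without TMM factors (-0.08 and -0.10). Leaving out any 1 of 7 libraries ended the GNB2 call, with values from -0.22 to -0.16 and limma adjusted p from 0.0624 to 0.121. Without control replicate 1 it was called at -0.30 (limma adjusted p = 3.13e-05). Adding 0.1 in place of 1 to RPKM also ended the GNB2 call (-0.21, limma adjusted p = 0.0583). GNB5, a divergent beta subunit that pairs with RGS proteins, was called higher at 0.27 and stayed so under each scaling, at 0.43 with equal totals.

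Among the gamma subunits, which anchor the beta-gamma pair in the membrane, GNG2 stood out. Its values were 3.797, 2.92, 3.21 and 2.75 RPKM in the controls and 1.14, 1.20, 1.17 and 1.31 RPKM after SB. The lowest control held more than the highest SB-treated culture by a wide gap, and control replicate 1 was the highest. Means fell from 3.17 ± 0.460 (SD, n = 4) to 1.21 ± 0.0736 RPKM (SD, n = 4), with 489 reads per control library and 196.5 per SB-treated library on average. The log2 fold change of GNG2 was -0.91 (SE 0.07, limma adjusted p = 4.45e-06), -0.84 without control replicate 1 and -1.31 with 0.1 in place of 1 added to RPKM. The ratio of the control mean to the SB-treated mean was 2.62, and the gene ranked 14469 of 14526 from the largest rise. On build hg38 GNG2 spans chr14:51826195-51979342 on the plus strand.

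GNG5 carried most of the gamma transcript. It stood at 109, 109, 102 and 98.0 RPKM in the controls and 76.5, 78.1, 76.8 and 80.9 RPKM after SB. No SB-treated culture came near the lowest control. Its log2 fold change was -0.41 (SE 0.04, limma adjusted p = 2.67e-05), and the call held under each scaling, with -0.23 at equal library totals. GNG12 was called lower at -0.23, a call that ended without TMM factors (-0.13). GNG4 was called higher at 0.26, and at 0.43 with equal totals. GNG7 was called higher at 0.13 with overlapping groups. Leaving out any 1 of 7 libraries ended that call, including control replicate 1 (0.09, limma adjusted p = 0.0572), with values from 0.09 to 0.14. Adding 0.1 in place of 1 to RPKM also ended the GNG7 call (0.15, limma adjusted p = 0.0527), and so did an intensity trend in the fit. With equal totals GNG7 was at 0.30. GNG11, the least abundant gamma gene in the controls, at 1.59 RPKM and 1.34 RPKM after SB, was not called.

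The adenylyl cyclases, which make cAMP from ATP, were the one family of several genes in which all genes with a row were called in the same direction. All 6 were called higher with no overlap between groups, at a median log2 fold change of 0.49, against 33.0% of all genes called higher. They were called higher in each fit that tested them, 16 for ADCY5, which a minimum mean of 1 RPKM removes, and 17 for the others, with the 6 genes between 0.30 and 1.04 and a largest limma adjusted p of 7.88e-04. Their summed level was 37.8 ± 2.997 RPKM (SD, n = 4) in the controls and 57.7 ± 1.16 RPKM (SD, n = 4) after SB, at a ratio of 1.53. The lowest summed SB-treated value was 56.5 RPKM, above the highest control at 40.1 RPKM. ADCY2, ADCY4 and ADCY8, cyclases outside the list, have no row in the table.

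ADCY1, which calcium and calmodulin stimulate, stood at 3.87, 4.56, 3.91 and 4.22 RPKM in the controls and 8.49, 8.64, 8.58 and 8.01 RPKM after SB. The SB-treated mean was 2.04 times the control mean, and the spread within each group was small beside the gap. Means were 4.14 ± 0.317 (SD, n = 4) and 8.43 ± 0.285 RPKM (SD, n = 4), from 2121 and 4543 reads per library. The log2 fold change was 0.88 (SE 0.05, limma adjusted p = 8.14e-07), rank 76 of 14526 by size of rise, and 0.85 without control replicate 1. ADCY1 spans chr7:45574140-45723116 on the plus strand. It is also the only 1 of the 37 in a gene list that the study chose partly by a rise in these samples. That list is therefore not independent evidence of the direction of ADCY1. The study also asked for increased benzoylation reads and for decreased or unchanged acetylation reads around the start site. Absence from the list, as for ADCY6, therefore does not mean that a transcript failed to rise.

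ADCY6, a cyclase that calcium inhibits and that is widespread in non-neuronal tissue, stood at 4.85, 6.03, 5.75 and 6.27 RPKM in the controls and 10.4, 11.1, 10.5 and 10.2 RPKM after SB. Control replicate 1 was the lowest of all, and the other controls were also well below the SB-treated cultures. Its log2 fold change was 0.78 (SE 0.06, limma adjusted p = 6.34e-06), and 0.72 without control replicate 1. ADCY3, another calcium-responsive cyclase, stood at 9.70, 12.5, 11.3 and 12.4 RPKM in the controls and 16.6, 16.8, 16.8 and 16.2 RPKM after SB. The controls varied more than the SB-treated cultures, yet the groups did not overlap. Its log2 fold change was 0.50 (SE 0.07, limma adjusted p = 1.43e-04), at the limit of 0.5, and it was 0.43 without control replicate 1 and 0.499 under median-of-ratios scaling.

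ADCY7, a cyclase that beta-gamma subunits enhance, stood at 3.84, 4.23, 3.96 and 4.40 RPKM in the controls and 6.04, 6.26, 6.04 and 6.14 RPKM after SB. Again the groups were far apart for their spread. The log2 fold change of ADCY7 was 0.48 (SE 0.04, limma adjusted p = 8.12e-06). ADCY9, abundant at 11.8 and 15.1 RPKM, was called at 0.33, and at 0.50 with equal totals. ADCY5, at 0.572 and 0.992 RPKM, was called at 0.34. The ADCY5 value shows how the added 1 shrinks low genes, since with 0.1 added it was 0.71. Because the genes rose unequally, the cyclase make-up shifted, with ADCY1 going from 10.95 ± 0.529% of the summed RPKM (SD, n = 4) to 14.6 ± 0.300%, and ADCY6 from 15.1 ± 0.559% to 18.2 ± 0.264%. ADCY9 went from 31.3 ± 1.10% to 26.1 ± 0.230%.

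Counted length moved with direction across the whole table, and the cyclases are long genes. In the shortest of 4 equal length classes 19.0% of all genes were called higher and 47.8% lower, and in the longest, from 5155 bases, 48.3% were higher and 18.3% lower. The longest class held 5 of the 6 cyclases and 20 of the 37 signalling genes, of which 12 were higher and 3 lower. The median counted length was 5312 bases for the 37 genes and 3339.5 bases for all genes. The part of length in the rise of the cyclases was not tested.

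**Figure D4:**
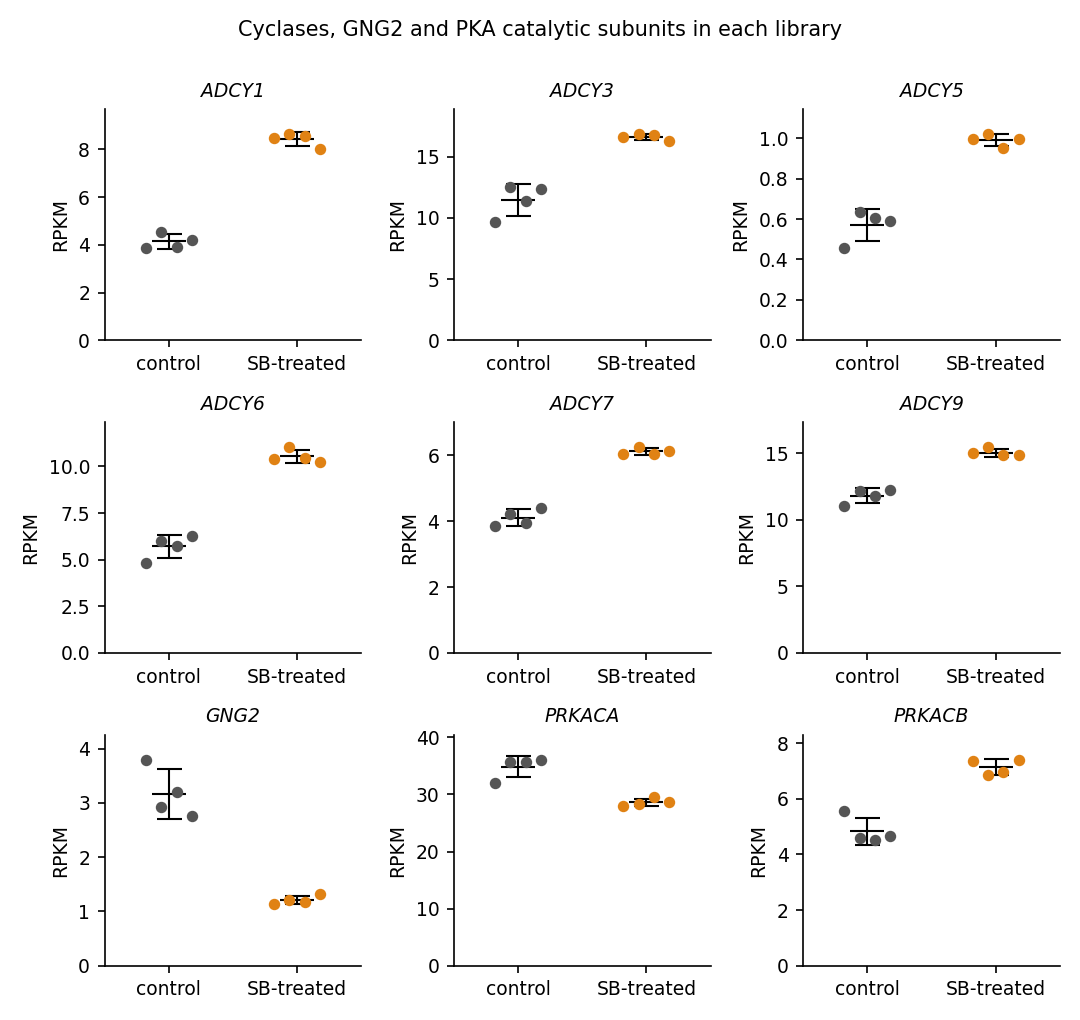
RPKM (y axis, from 0) of the 6 cyclases, GNG2 and both PKA catalytic subunits in each library, with grey points for the 4 controls, orange points for the 4 SB-treated cultures and bars for the mean and SD. ADCY1 lies between 3.87 and 4.56 RPKM in the controls and between 8.01 and 8.64 RPKM after SB, and the groups are apart in each panel.

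PKA, the kinase that cAMP frees, showed opposite changes in its catalytic subunits. PRKACA, the major one, stood at 32.0, 35.7, 35.6 and 36.1 RPKM in the controls and 28.0, 28.3, 29.5 and 28.6 RPKM after SB. All SB-treated values lay below the controls, with control replicate 1 nearest to them. Its log2 fold change was -0.28 (SE 0.04, limma adjusted p = 4.02e-04), but with equal library totals it was -0.09 and not called (limma adjusted p = 0.0781). PRKACB, the second catalytic gene, stood at 5.56, 4.59, 4.53 and 4.65 RPKM in the controls and 7.38, 6.85, 6.96 and 7.42 RPKM after SB. Its controls lay below every SB-treated value although replicate 1 was high among them. PRKACB had a log2 fold change of 0.49 (SE 0.06, limma adjusted p = 6.31e-05), and 0.54 without control replicate 1. The share of PRKACB in the catalytic transcript, a ratio that no scaling alters, went from 12.2 ± 1.72% (SD, n = 4) to 20.01 ± 0.861% (SD, n = 4).

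The regulatory subunits, which hold PKA inactive until cAMP binds, were split, with PRKAR1B called higher, PRKAR2A called lower and the other 2 not called. PRKAR2A, the most abundant by a small margin, stood at 47.6, 44.2, 40.1 and 44.9 RPKM in the controls and 39.8, 40.3, 39.4 and 39.997 RPKM after SB. Control replicate 3 fell among the SB-treated values, so the groups overlapped. The log2 fold change of PRKAR2A was -0.14 (SE 0.05, limma adjusted p = 0.0291), which turned to 0.04 at equal library totals. Leaving out any 1 of 6 libraries ended that call, with values from -0.15 to -0.13. PRKAR1B was the only regulatory gene called higher, at 0.32, and was so under each scaling. PRKAR1A, at -0.10, and PRKAR2B, at -0.16, were not called and turned to 0.08 and 0.01 at equal totals. Without control replicate 1, PRKAR1A was -0.03 and not called. PRKAR2B was called without control replicate 1 (-0.09, limma adjusted p = 0.0433). With same-numbered replicates as a block, PRKAR2B was also called (limma adjusted p = 0.0349).

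In the PLC arm, PLCB3, the most abundant beta-type PLC, stood at 8.22, 9.41, 10.1 and 9.44 RPKM in the controls and 11.2, 12.1, 11.7 and 10.8 RPKM after SB. The groups did not overlap, with control replicate 1 lowest. PLCB3 had a log2 fold change of 0.28 (SE 0.06, limma adjusted p = 0.00218), and 0.45 with equal totals. PLCB4 was called higher at 0.13 with overlapping groups. Leaving out any 1 of 5 libraries ended the call, with values from 0.10 to 0.13. With equal totals PLCB4 was at 0.27. PLCB1 was not called at 0.08, but was called at 0.14 without control replicate 1 (limma adjusted p = 0.00179) and at 0.17 without TMM factors. Over the fits that left out one library, PLCB1 ran from 0.05 to 0.14.

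The IP3 receptors, channels that release calcium from the endoplasmic reticulum, differed from one another. ITPR3 stood at 9.33, 11.7, 10.5 and 11.4 RPKM in the controls and 12.4, 12.6, 12.5 and 12.3 RPKM after SB. Its SB-treated values were nearly equal and lay above all controls. ITPR3 had a log2 fold change of 0.20 (SE 0.06, limma adjusted p = 0.0147), 0.14 without control replicate 1 and 0.37 with equal totals. ITPR1 was called lower at -0.26, and at -0.14 with equal totals. ITPR2 was not called at -0.06 (limma adjusted p = 0.0867) although its groups did not overlap, it was called without control replicate 1 (-0.06, limma adjusted p = 0.0496), and it was called higher at equal library totals (0.09, limma adjusted p = 0.0256). As a share of the 3 receptors, ITPR3 went from 59.2 ± 2.42% (SD, n = 4) to 65.4 ± 0.486% (SD, n = 4).

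PRKCA encodes protein kinase C alpha, which calcium and diacylglycerol activate. It stood at 8.29, 8.36, 7.77 and 8.19 RPKM in the controls and 8.26, 8.25, 8.05 and 8.39 RPKM after SB. The groups overlapped throughout. PRKCA had a log2 fold change of 0.01 (95% interval -0.06 to 0.09, limma adjusted p = 0.734), -0.006 without control replicate 3, and was called higher at 0.11 without TMM factors and 0.18 at equal totals, where the median of all genes was 0.08 and 0.14. MAOA, which oxidises serotonin at the mitochondrial surface, stood at 0.868, 0.916, 0.8286 and 0.913 RPKM in the controls and 1.01, 1.05, 0.965 and 1.10 RPKM after SB. The SB-treated values were above the controls by a narrow gap, at a low level of 190.25 and 234.5 reads per library. MAOA had a log2 fold change of 0.11 (SE 0.04, limma adjusted p = 0.0195), and 0.20 with equal totals. Its call in the deposited values ended without control replicate 3 or SB-treated replicates 2 or 4, with values from 0.09 to 0.10.

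Summed by family, the direction for the abundant alpha, beta and PKA catalytic subunits depended on the scaling. The alpha subunits together had 250.5 ± 2.20 RPKM (SD, n = 4) in the controls and 227 ± 2.22 RPKM (SD, n = 4) after SB, a ratio of 0.904 that became 1.03 with equal library totals. For the beta subunits the ratio was 0.896 as deposited and 1.02 with equal totals, and for the PKA catalytic subunits it was 0.900 and 1.02, and for both families the groups were apart as deposited but overlapped without TMM factors and with equal totals. The gamma subunits were below 1 under each scaling, at 0.805 as deposited and 0.916 with equal totals. The cyclases were above 1 under each, at 1.53 and 1.74, and so was beta-type PLC, at 1.17 and 1.33. For the PKA regulatory subunits the groups overlapped under each scaling, and for the IP3 receptors they overlapped as deposited and were apart, higher after SB, with equal totals.

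**Figure D5:**
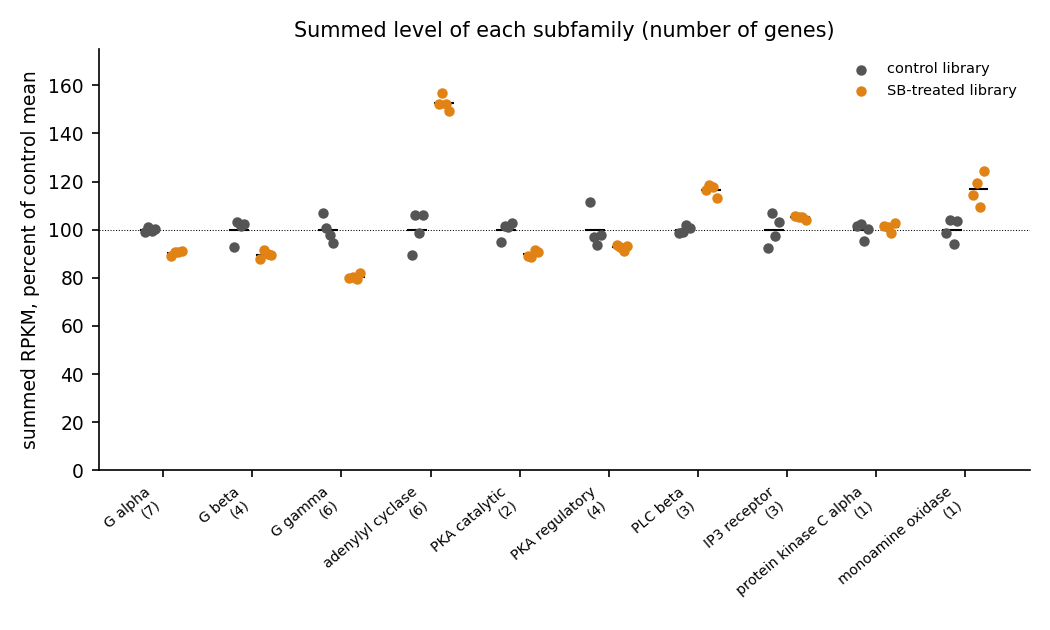
Summed RPKM of each family in each library as a percent of its control mean (y axis), with families and their number of genes on the x axis, grey points for controls, orange points for SB-treated cultures and black lines for group means. The cyclases stand at 1.53 times the control mean and the gamma subunits at 0.805 times, while the alpha, beta and PKA catalytic sums, near 0.90, go above 1 when every library is given the same total RPKM.

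Genes of the same pathways outside the list gave 131 of 179 with a row, of which 57 were called higher and 31 lower (67.2%, against 65.6% of all genes), at a median log2 fold change of 0.06. Of the other G protein subunits 7 of 15 have a row, 5 were called higher and 0 lower (71.4% called), with GNA12 at 0.55 and GNB3 at 0.49. Of the other cyclases, PKA subunits and PKA inhibitors 5 of 9 have a row, 3 were called higher and 1 lower (80.0%), with PRKX at 0.25, the soluble cyclase ADCY10 at 0.21 and the inhibitor PKIB at -0.22, which lost its call without TMM factors (-0.13). The phosphodiesterases, which break cAMP down, were split, with 6 of 15 called higher and 7 lower (86.7% called, against 65.6% of all genes). PDE3B rose from 3.04 to 5.31 RPKM (0.64) and PDE8A by 0.36, while PDE1B and PDE4B both had -0.53. That likeness rests on the added 1, since with 0.1 added PDE1B had -0.88 and PDE4B -1.25. Of the anchoring proteins for PKA 12 of 15 have a row, 6 were called higher and 1 lower (58.3%), with AKAP13 at 0.38 and AKAP8L at 0.36. AKAP1, at -0.10, turned to 0.08 with equal totals and lost its call without any 1 of 4 libraries, with values from -0.10 to -0.09.

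Downstream of cAMP, 7 of 10 transcription factors, coactivators and EPAC genes were called higher and 2 lower, beside 33.0% called higher and 32.6% lower among all genes. The median counted length of these 10 genes was 6239 bases. Among all genes from 5155 bases, 48.3% were called higher and 18.3% lower, and the difference was not tested. The coactivator CRTC1 had means of 3.76 ± 0.328 RPKM (SD, n = 4) in the controls and 7.10 ± 0.294 RPKM (SD, n = 4) after SB, which makes 0.77 on the log2 scale, and the cAMP sensor RAPGEF3 was at 0.58. With 0.1 added in place of 1 their order turned, with CRTC1 at 0.90 and RAPGEF3 at 1.06. CREM, at -0.25, and RAPGEF4, at -0.18, were lower and lost their calls with equal totals (-0.10 and -0.05). Of 16 genes known to be induced by cAMP, 10 have a row, and 1 was called higher and 4 lower, a smaller share called than the 65.6% of all genes. DUSP1 rose from 28.4 to 40.8 RPKM (0.51), whereas JUNB, at -0.57, and FOS, at -0.31, were lower, an order that also turned with 0.1 added (-0.67 and -0.77). DUSP1 came to 0.4998 without control replicate 1.

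Of the RGS proteins, which speed the return of alpha subunits to rest, 13 of 21 have a row. Of these, 3 were called higher and 3 lower (46.2%, beside 65.6% of all genes, a difference that was not tested). RGS16 fell from 10.5 to 5.01 RPKM (-0.93) and RGS10 had -0.30, which lost its call with equal totals (-0.12). RGS12 was at 0.40 and RGS7, a partner of GNB5, at 0.37. Of 7 receptor kinases and arrestins, 2 were called higher and 1 lower (42.9%), with ADRBK2 at 0.33, ADRBK1 at 0.18 and ARRB2 at -0.29. ADRBK1 was 0.11 without control replicate 1, and its call ended without any 1 of 3 other libraries, with values from 0.17 to 0.18.

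On the PLC side, 9 of 11 other PLC genes have a row, and 4 were called higher and 3 lower (77.8%, against 65.6% of all genes). PLCE1 was at 0.42 and PLCG1 at 0.24, PLCD1 at -0.61, and PLCG2 at -0.18, which lost its call with equal totals (-0.05). Among the enzymes of IP3 and diacylglycerol metabolism 16 of 19 have a row, and 8 were called higher and 4 lower (75.0%). The phosphatase INPP1 was at 0.74 and the diacylglycerol kinase DGKD at 0.64, while PIP5K1A was at -0.33 and IMPA1 at -0.32, the last without a call at equal totals (-0.15). Of 11 other protein kinases C and D, 4 were called higher and 2 lower (54.5%). PRKCB was at 0.27. PRKD2, at -0.22, lost its call without any 1 of 7 libraries (-0.24 to -0.18) and without TMM factors (-0.13). PRKCI, at -0.20, lost it without any 1 of 4 libraries (-0.21 to -0.20) and without TMM factors (-0.10), and was -0.12 without control replicate 1.

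At the ends of the pathway, 7 of 20 serotonin receptor, synthesis and transport genes have a row, and 5 were called higher and 0 lower (71.4% called, near the 65.6% of all genes). The receptor gene HTR1D rose from 0.645 to 1.17 RPKM (0.40), and the vesicle transporter gene SLC18A2 from 5.78 to 7.79 RPKM (0.37). Of 9 genes of the MAP kinase cascade in the same pathway, 3 were called higher and 3 lower (66.7%), with BRAF at 0.25 and MAP2K1 at -0.27.

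The strand setting of the read counting is not stated, so reads of a gene on the opposite strand may have been counted where genes overlap. By GENCODE release 44 on hg38, the 37 genes lie on 15 chromosomes, and 8 overlap an opposite-strand gene that has a row, namely GNAS with GNAS-AS1, GNG5 with RPF1, GNG12 with GNG12-AS1, ADCY3 with CENPO, ADCY7 with BRD7, PRKAR1B with DNAAF5, PRKAR2A with PRKAR2A-AS1 and ITPR3 with UQCC2. GNAI2, GNAQ, GNG5 and PRKAR1A have named pseudogenes, and their values are uncertain to that extent. ADCY1, ADCY6, GNG2 and PRKACB overlap no such gene with a row. ADCY6 spans chr12:48766194-48789089 on the minus strand, and ADCY3 spans chr2:24819169-24920237 on the minus strand.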

How the data were processed

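The authors sequenced total RNA from 4 control and 4 SB-treated cultures, mapped the reads to hg38 with TopHat2 2.1.0, counted them per gene with featureCounts 1.5.0, filtered genes (over 1 CPM, at least 2 samples) and scaled library sizes by TMM in edgeR 3.16.5. The authors deposited RPKM for each gene and library. Their comparison columns (log2 fold change, log2 CPM, p-value and FDR) were not used, and 0 columns of per-sample values were left out. Reads were recovered as whole numbers for 100% of genes (tolerance 0.02 reads). All 37 members with a row passed the authors' filter, the lowest, GNG11, at a mean of 1.52 CPM in the controls, and none was at or under 1 CPM throughout a group.

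The groups were compared with limma 3.58.1 (lmFit and eBayes) in R 4.3.3 on log2(RPKM + 1), two-sided, with Benjamini-Hochberg adjustment over 14526 genes and no further filter. Alternatives were 0.1 in place of 1 added to RPKM, scaling by reads without TMM factors, median-of-ratios scaling, the same total RPKM in every library, a mean RPKM of at least 1, the replicate block, an intensity trend, voom on recovered reads and leaving out each library. Full statistics are given for called members with an absolute log2 fold change of at least 0.5, topped up to 8 by size of change, for the most abundant member of each family and for PRKCA. Of each other list, up to 2 called genes with the largest rise and 2 with the largest fall are named. Members and lists were chosen with earlier results of these data known. Promoters are from RefSeq, and gene positions from GENCODE release 44.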

Additional observations from a re-analysis of the deposited data

Results flagged for a closer look

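For each of the 37 genes, both groups of 4 were examined for a sample far from the rest, by the gap between an extreme sample and its nearest neighbour as a share of the group's range on log2(RPKM + 1). In 13 of 74 groups that share passed the 95% limit of Dixon's test for groups of 4. Chance marks about 1 in 20 groups, or 3.7 of 74. Control replicate 1 was the far sample in 10 of the 13, lowest in 5 and highest in 5.

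Control replicate 1 was far below the other controls for GNAI2 (share of range 0.868, 14.9 RPKM against 16.9 to 17.3), GNAO1 (0.847, 3.70 against 5.08 to 5.37), GNA11 (0.862, 12.6 against 14.3 to 14.6), GNB2 (0.855, 71.4 against 90.8 to 94.6) and PRKACA (0.888, 32.0 against 35.6 to 36.1). The same library was far above the other controls for GNAI1 (0.859, 14.9 RPKM against 11.9 to 12.3), GNG12 (0.966, 40.1 against 32.3 to 32.5), PRKACB (0.870, 5.56 against 4.53 to 4.65), PRKAR1A (0.926, 48.9 against 39.9 to 40.5) and PRKAR2B (0.870, 11.8 against 9.33 to 9.62).

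Among the SB-treated cultures, replicate 1 was far below the others for GNA11 (0.931, 17.7 RPKM against 19.8 to 19.97) and far above them for GNG12 (0.843, 29.8 against 28.5 to 28.7). SB-treated replicate 2 was far above the others for PRKAR1B (0.839, 5.62 RPKM against 5.22 to 5.28).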

How the results depend on the processing

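Of the 37 genes, 19 kept their direction and side of the threshold in every setting that tested them. A mean RPKM of at least 1 removes ADCY5 and MAOA. Of the 19, 14 were higher, 4 lower and 1 not called. The matching counts over all genes were not computed, so this split cannot be set against them. Members higher ranged from 14 to 18 and members lower from 10 to 14 over the fits that left out one library, in which 29.7% to 37.6% of all genes were higher and 29.5% to 37.9% lower. Members past a log2 fold change of 0.5 numbered 4 (all genes 10.6%), and came to 7 with a pseudocount of 0.1 (18.7%), 8 without TMM factors (11.2%), 9 with the same total RPKM in every library (13.6%) and 7 with voom (20.7%). Members lower numbered 12, and came to 7 without TMM factors and 4 with the same total RPKM, under which 7441 of all genes were higher and 2432 lower. The last pair of scalings raise every SB-treated value relative to the controls by construction. Signs turned without TMM factors for PRKAR1A (0.0049), ITPR2 (0.0235) and AKAP1 (0.0023), and with the same total RPKM for GNB1 (0.0495), PRKAR1A (0.0846), PRKAR2A (0.0408), PRKAR2B (0.0073), ITPR2 (0.0918) and AKAP1 (0.0813). Leaving out one library gave -0.0034 to 0.0635 for GNAI2 and -0.0060 to 0.0249 for PRKCA. For the other changes the cause was not tested.

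Same-numbered replicates correlated at 0.380, 0.327, 0.173 and -0.160 across genes after removing group means, and no label says that they were handled together. With the replicate block, 17 members were higher and 13 lower, 4 were past 0.5, 9779 genes were called, and PRKAR2B became called (limma adjusted p = 0.0349).

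One line, 1 dose, 1 time and 4 cultures a group limit the results. GNG11, at 60.25 and 53.75 reads per library, was the member with the fewest reads, and counting error is largest there.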
